A study of Mus musculus with 2 samples.

Results

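The genes of 9 proteins that hepatocytes secrete into the blood (ALB, AFP, TTR, TF, APOA1, APOB, SERPINA1, FGB and HP) were examined for H2BK120ub, the form of histone H2B that carries a single ubiquitin on a lysine near its end. The members were given by name, and a peak belonged to a gene when it touched the gene span or 5 kb on either side. By this rule, 16 of 101866 peaks of the WT library and 13 of 127444 peaks of the UBR7-KO library fell to the 9 genes. The libraries come from a ChIP-seq study of liver cells kept in culture after conditional immortalisation, 1 library of wild type cells (WT) and 1 of Alb; Cre-UBR7fl/fl cells (UBR7-KO). The latter express Cre from the albumin promoter, which cuts the floxed Ubr7 gene in hepatocytes, and they therefore carry albumin promoter sequence in the transgene besides their own gene. Cells of both genotypes grew in the same medium with serum. Per the study's methods, primary liver cells were taken from mice of both genotypes at 8 weeks of age. The number of animals is not given in the sources used here, and the loss of UBR7 was not checked here because peak lists do not measure it.

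Before the results, conflicts in the labels have to be stated. The molecule is labelled as total RNA and the library source as transcriptomic, while the kit, the titles and the study's methods describe ChIP-seq, and the lists were read as ChIP-seq peaks. The samples are labelled as mouse, whereas the peaks lie on the human genome build hg19, and the 9 genes were therefore placed by their human positions. If reads of mouse cells were aligned to hg19, the peaks would also depend on how well each stretch is conserved, and this was not tested. With 1 library per genotype, each difference is one between libraries and has no replicate error, no test and no p-value. Since cells were pooled in each library, fewer cells with the mark and less mark per cell cannot be told apart.

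Hepatocytes make most of the proteins of blood plasma, and the genes for them are among the most highly transcribed of the liver. ALB encodes albumin, the main carrier of the plasma, and AFP encodes its fetal relative. H2BK120ub is placed by the RNF20 and RNF40 ligases as RNA polymerase II moves along a gene, and it is known to lie mainly over transcribed gene bodies downstream of the start site. UBR7 has been described as a further ligase for this residue.

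In WT, 6 of the 9 genes had at least 1 peak in their window, and in UBR7-KO 8 of the 9 did. Genome windows of 23947 bp, the median length of the 9 windows, held a peak in 56.2% of cases in WT and in 63.1% in UBR7-KO. When each gene was set against windows of its own length laid end to end along its own chromosome, the shares with a peak added up to 5.11 of 9 genes in WT and 5.74 in UBR7-KO. The counts of 6 and 8 were thus near to somewhat above this background. The genes with a peak in both libraries were ALB, TTR, TF, APOA1, APOB and SERPINA1, or 6 of 9 against 43.3% of the genome windows. FGB and HP had a peak in UBR7-KO and 0 peaks in WT, and AFP had 0 peaks in either. Of same-length windows on the same chromosome, 31.3% gained at least as much cover as FGB in UBR7-KO, and 17.0% as much as HP.

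**Figure D1:**
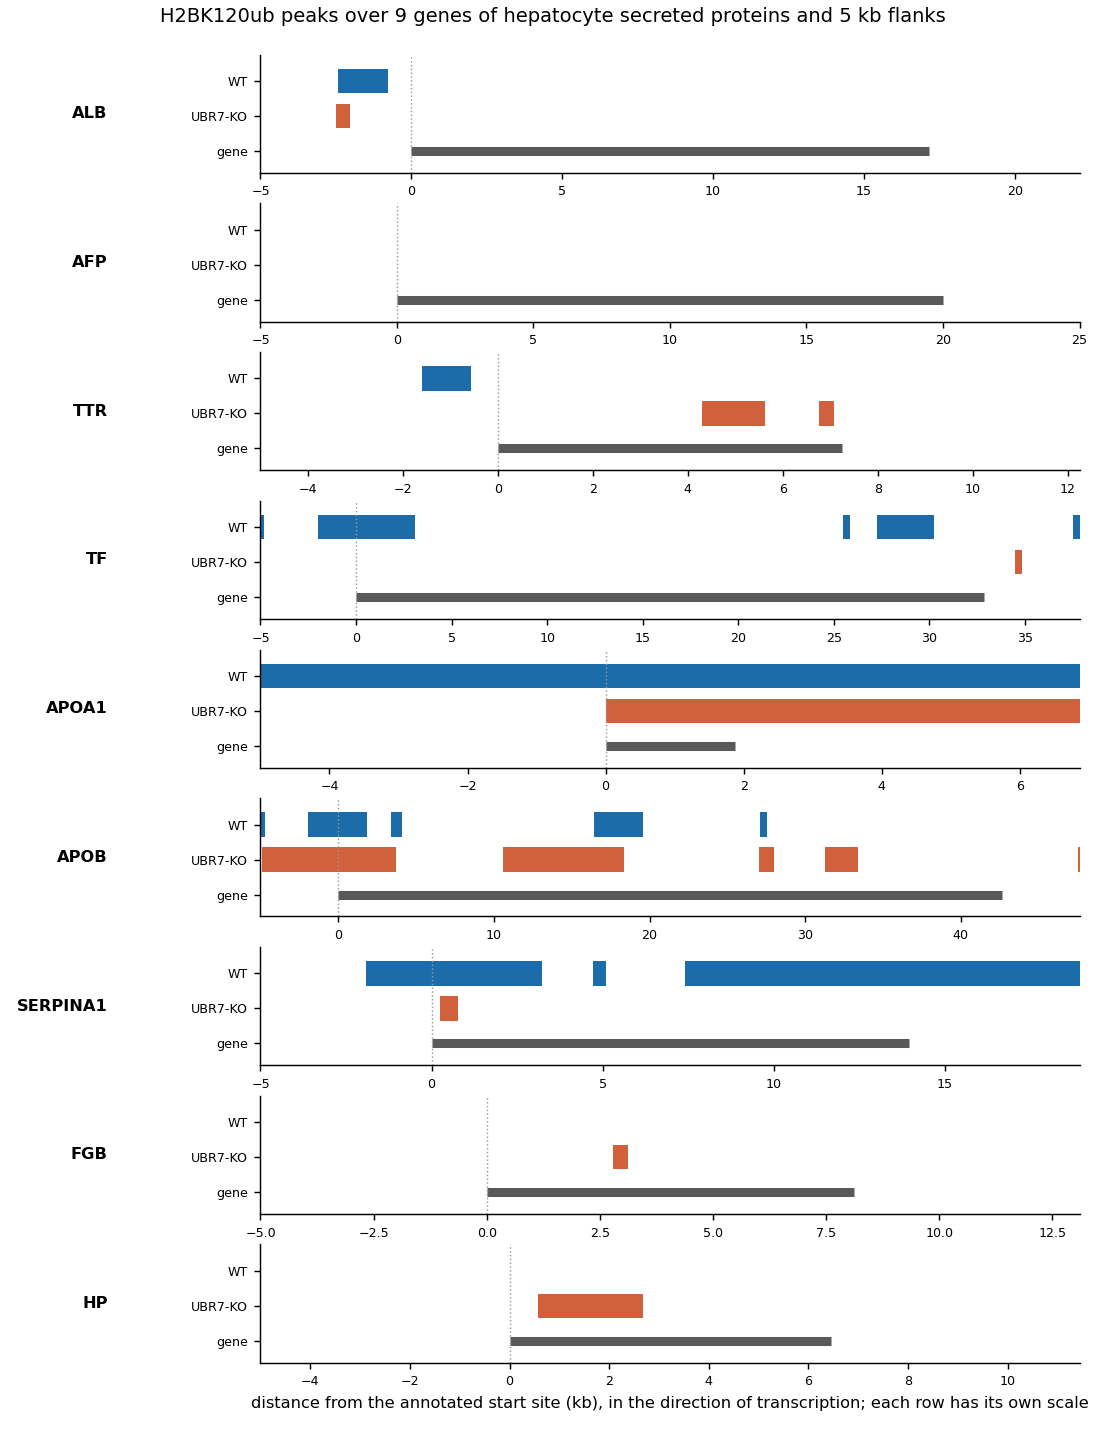
Peaks within the gene span and 5 kb on each side, drawn as bars at their distance in kb from the annotated start site, in the direction of transcription, with WT above UBR7-KO and the gene span as a grey bar. Bars are clipped at the window, each row has its own scale, and AFP has no bar in either library.

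Start sites gave another order. A peak within 1 kb of the annotated start was present for 6 of 9 genes in WT and 4 of 9 in UBR7-KO, while 18.3% and 18.5% of genome windows of 2001 bp held a peak. Those windows lie anywhere along the chromosomes, and the starts of other genes were not compared. In WT these were ALB, TTR, TF, APOA1, APOB and SERPINA1, and in UBR7-KO they were APOA1, APOB, SERPINA1 and HP. A peak covered the start base itself for TF, APOA1, APOB and SERPINA1 in WT but for APOB alone in UBR7-KO.

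Among the genes of carrier proteins, ALB and AFP had no peak over the gene body. The body of ALB (chr4:74269972-74287129, plus strand) had no cover in either library, although 41.5% of WT windows and 49.4% of UBR7-KO windows of that length on chromosome 4 held a peak. The window of ALB held 1 peak in each library, upstream of the start. Each peak comes with a pileup, the number of overlapping fragments as the peak caller gives it, and a fold enrichment over the local background. Whether these are values at the summit or over the whole peak is not stated. The fold enrichment was taken here as the ratio of pileup to background after 1 is added to each, the usual rule of this peak caller. In WT the ALB peak was 1673 bp long (chr4:74267540-74269212), ended 760 bp before the start site and had a pileup of 6.49 and a fold enrichment of 2.53. In UBR7-KO it was 466 bp long (chr4:74267490-74267955), ended 2017 bp before the start and had a pileup of 7.54 and a fold enrichment of 3.62. The peaks shared 416 bp, which was 24.9% of the WT peak and 89.3% of the UBR7-KO peak. Within its own list, the UBR7-KO peak ranked 98 of 127444 by fold enrichment and the WT peak 15613 of 101866, so the shorter of the pair stood much nearer the top of its list. Whether the albumin promoter sequence of the transgene adds to the UBR7-KO peak was not tested.

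AFP (chr4:74301880-74321891, plus strand) follows ALB on the same chromosome after a gap of 14750 bp. From the start of ALB to the end of AFP, a stretch of 51920 bp, 0 bp was covered in WT and 0 bp in UBR7-KO. The peak-free stretch that holds both genes measured 71835 bp for WT and 74895 bp for UBR7-KO. The nearest peak to AFP lay 19157 bp past its end in WT and 20960 bp past it in UBR7-KO. Windows of chromosome 4 as long as that of AFP, 30012 bp, are often without a peak too, since 58.2% in WT and 66.5% in UBR7-KO held one. No such share was computed for windows as long as the whole stretch, or for windows empty in both lists.

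TTR, which encodes transthyretin, the carrier of thyroxine and of retinol-binding protein, had peaks at different places in the libraries (chr18:29171730-29178987, plus strand). The only WT peak was 1025 bp long, lay upstream and ended 576 bp before the start, with a pileup of 6.03 and a fold enrichment of 2.18. UBR7-KO had 2 peaks within the gene, at 4290 to 5628 bp and at 6762 to 7074 bp from the start, with fold enrichments of 2.17 and 2.52. No base was shared. The body was covered over 0% in WT and 22.8% in UBR7-KO.

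TF, which encodes transferrin, the iron carrier of the plasma, went the other way (chr3:133464977-133497850, plus strand). WT had 5 peaks in the window. The longest spanned 5044 bp across the start site, from 1977 bp upstream to 3066 bp downstream, with a pileup of 8.04 and a fold enrichment of 2.49. A second stretch of 2984 bp lay 27236 bp into the gene, and the other 3 were between 357 and 1367 bp long. UBR7-KO had 1 peak of 342 bp, 1634 bp past the end of the gene, which overlapped none of the WT peaks. Peaks covered 8926 bp of the WT window but 342 bp in UBR7-KO, 26.1 times as much in WT. Of 4618 windows of this length on chromosome 3, 5.15% covered at least 8584 bp less in UBR7-KO than in WT, as TF did.

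The apolipoprotein genes were covered in both libraries. APOA1, the main protein of high-density lipoprotein (chr11:116706469-116708338, minus strand), is the shortest gene of the group at 1870 bp. It lay inside a single long peak in WT and, but for 8 bp at its start, in UBR7-KO. In WT this peak measured 32178 bp (chr11:116687800-116719977), with a pileup of 7.08 and a fold enrichment of 2.36, and it covered 100% of the window. In UBR7-KO it measured 18955 bp (chr11:116689376-116708330), with a pileup of 4.52 and a fold enrichment of 2.10, and lay wholly within the WT peak. Its upstream edge was 8 bp inside the gene, so the 5 kb before the start site were covered over 100% in WT and 0% in UBR7-KO. The gene body itself was covered over 99.6% in UBR7-KO. On the other side the peaks ran 20538 bp and 18962 bp downstream of the start, into the neighbouring apolipoprotein genes APOC3 and APOA4, so neither peak belongs to APOA1 alone. Windows of 11870 bp covered as fully as that of APOA1 made up 3.33% of those on chromosome 11 in WT and 6.36% in UBR7-KO. Of the 379 windows covered as fully in WT, 153 were covered as little in UBR7-KO, or 40.4%. A loss of at least the same 5008 bp was seen in 5.72% of all 11373 windows.

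APOB, the protein of low-density and very-low-density lipoproteins (chr2:21224301-21266945, minus strand), had 5 peaks in each library. In WT they were between 433 and 3787 bp long. The longest of these spanned the start site, from 1937 bp upstream to 1849 bp downstream, and had a pileup of 9.26 and a fold enrichment of 3.0, the highest of the 16 WT peaks. In UBR7-KO a peak of 8606 bp spanned the start site, from 4875 bp upstream to 3730 bp downstream, with a pileup of 4.03 and a fold enrichment of 2.10. All 5 WT peaks overlapped a UBR7-KO peak, and 3 of 5 UBR7-KO peaks overlapped a WT peak. Of the window, 8402 bp were covered in WT, whereas UBR7-KO had 19552 bp, 2.33 times as much in UBR7-KO. APOB was the only gene of the 9 that gained over 5 kb of cover in UBR7-KO, and 1.39% of the 4619 windows of its length on chromosome 2 gained at least the same 11150 bp. Of the 197 windows covered as fully as APOB in UBR7-KO, 16 were covered as little in WT, or 8.12%. With peaks limited to a pileup of at least 3 times the local background, the order turned, to 3787 bp in WT against 3197 bp in UBR7-KO. This limit kept 25.3% of all WT peaks but 44.9% of all UBR7-KO peaks. By number, APOB kept 1 peak in WT and 3 in UBR7-KO. The covered length of the whole lists under this limit was not computed, so the turn in length has no like background. A fold enrichment of at least 2.5 favoured the other list, as it kept 16.9% of WT peaks but 9.77% of UBR7-KO peaks. Under it, APOB kept its longest WT peak of 3787 bp and lost every UBR7-KO peak. The 5 UBR7-KO peaks had fold enrichments between 2.09 and 2.25, and the remaining WT peaks between 2.01 and 2.27. The longer cover in UBR7-KO was thus made up of peaks below 2.5.

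Promoters are shown for Alb and Afp, without cover over the body in either library. Beside them stand Apoa1 and Apob, with a peak on the start base in WT, and Fgb, with a peak over the body in UBR7-KO. ALB too had a WT peak within 1 kb of its start, ending 760 bp before it, so these groups are not cleanly apart. The promoters are the 250 bases upstream of the mouse start sites in RefSeq, build GRCm38.p6, since the samples are labelled as mouse. They are not the human sequence on which the peaks lie. Of the 9 genes, 5 were matched by symbol in the promoter table. Capitals mark 3 short motifs searched on both strands: GTTAAT, which is one arm of the binding site of the liver factor HNF1, the CCAAT box and the TATA box TATAAA. The motif matches do not overlap in these windows.
Alb (chr5:90460620-90460869, plus strand): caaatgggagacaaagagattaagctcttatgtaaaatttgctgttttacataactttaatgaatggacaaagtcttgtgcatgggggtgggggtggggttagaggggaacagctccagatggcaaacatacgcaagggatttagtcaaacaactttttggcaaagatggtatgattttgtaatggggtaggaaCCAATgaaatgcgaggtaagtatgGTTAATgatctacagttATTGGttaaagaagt
Afp (chr5:90490464-90490713, plus strand): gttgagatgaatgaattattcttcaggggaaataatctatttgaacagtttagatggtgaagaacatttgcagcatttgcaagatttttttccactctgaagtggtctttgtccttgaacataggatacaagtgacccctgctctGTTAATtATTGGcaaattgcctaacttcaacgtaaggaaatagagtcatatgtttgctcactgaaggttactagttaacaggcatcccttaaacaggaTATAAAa
Apoa1 (chr9:46228380-46228629, plus strand): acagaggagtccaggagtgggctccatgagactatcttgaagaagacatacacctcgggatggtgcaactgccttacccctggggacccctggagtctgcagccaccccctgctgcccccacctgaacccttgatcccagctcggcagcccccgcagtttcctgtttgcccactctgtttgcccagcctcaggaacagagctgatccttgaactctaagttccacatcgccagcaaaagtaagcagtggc
Apob (chr12:7977427-7977676, plus strand): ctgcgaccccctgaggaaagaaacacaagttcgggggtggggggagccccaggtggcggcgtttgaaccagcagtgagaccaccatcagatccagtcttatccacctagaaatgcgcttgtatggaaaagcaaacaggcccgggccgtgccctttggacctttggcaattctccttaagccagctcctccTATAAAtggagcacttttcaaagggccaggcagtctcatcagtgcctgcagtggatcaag
Fgb (chr3:83049864-83050113, minus strand): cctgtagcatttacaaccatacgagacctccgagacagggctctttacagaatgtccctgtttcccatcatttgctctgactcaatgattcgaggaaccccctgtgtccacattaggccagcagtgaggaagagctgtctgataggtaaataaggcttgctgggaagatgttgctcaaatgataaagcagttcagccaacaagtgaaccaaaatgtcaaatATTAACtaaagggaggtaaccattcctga
The HNF1 arm was found in Alb, Afp and Fgb, once each, in genes with and without a peak over the body, and in 6.43% of all 32851 promoter windows of the table. CCAAT was found at 2 places in Alb and 1 in Afp, and in 33.8% of all windows. TATAAA was found in Afp and Apob, and in 12.4% of all windows. The share of G and C was 39.2% in Alb and 36% in Afp, 44.8% in Fgb, 58% in Apoa1 and 55.2% in Apob. These are descriptions of 5 windows, and the letters alone do not show that a factor binds.

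Genes of the acute phase response, which liver cells transcribe more in inflammation, formed the last group. SERPINA1 encodes alpha-1-antitrypsin, the main inhibitor of neutrophil elastase (chr14:94843084-94857030, minus strand). WT had 3 peaks there. One of 22098 bp (pileup 6.78, fold enrichment 2.16) covered the last part of the gene and ran on past its end, one of 389 bp lay within the gene, and one of 5147 bp (pileup 7.48, fold enrichment 2.32) spanned the annotated start from 1918 bp upstream to 3228 bp downstream. UBR7-KO had 1 peak of 540 bp, at 237 to 776 bp from the start, with a pileup of 5.21 and a fold enrichment of 2.31, and this lay entirely within the WT peak at the start. Peaks covered 72.9% of the body in WT but 3.87% in UBR7-KO. Over the window they covered 17082 bp and 540 bp, 31.6 times as much in WT.

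No other gene of the 9 differed by so much length. On chromosome 14, 0.803% of the 4482 windows of this length lost at least the same 16542 bp. Of the 168 windows covered as fully as SERPINA1 in WT, 8 were covered as little in UBR7-KO, or 4.76%. Under the same limit on pileup, which kept a smaller share of all peaks in WT, SERPINA1 had 0 peaks in WT and its 540 bp in UBR7-KO. The start used here is the outer end of the gene span. Hepatocytes are known to start SERPINA1 transcripts at a promoter further inside the gene than the one used by macrophages, and the position of that promoter was not used here. The long WT peak also extends towards SERPINA2, a related copy, and reads shared by such copies were not resolved here.

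FGB, which encodes the beta chain of fibrinogen (chr4:155484132-155492241, plus strand), had 0 peaks in WT and 1 in UBR7-KO. That peak was 336 bp long, began 2785 bp after the start and had a pileup of 3.41 and a fold enrichment of 2.03, so that 87.6% of the UBR7-KO list stood above it. The nearest WT peak was 11381 bp from the gene. HP, which encodes haptoglobin, the scavenger of free hemoglobin (chr16:72088508-72094955, plus strand), likewise had 0 peaks in WT and 1 in UBR7-KO. The UBR7-KO peak was 2104 bp long, ran from 569 to 2672 bp after the start with a pileup of 4.01 and a fold enrichment of 2.23, and covered 32.6% of the gene body. The nearest WT peak was 14023 bp away, on a chromosome where peaks covered 20.0% of all bases in WT and 18.2% in UBR7-KO. HP has a near-identical neighbour, HPR, so reads of these genes may have been split by the alignment.

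**Figure D2:**
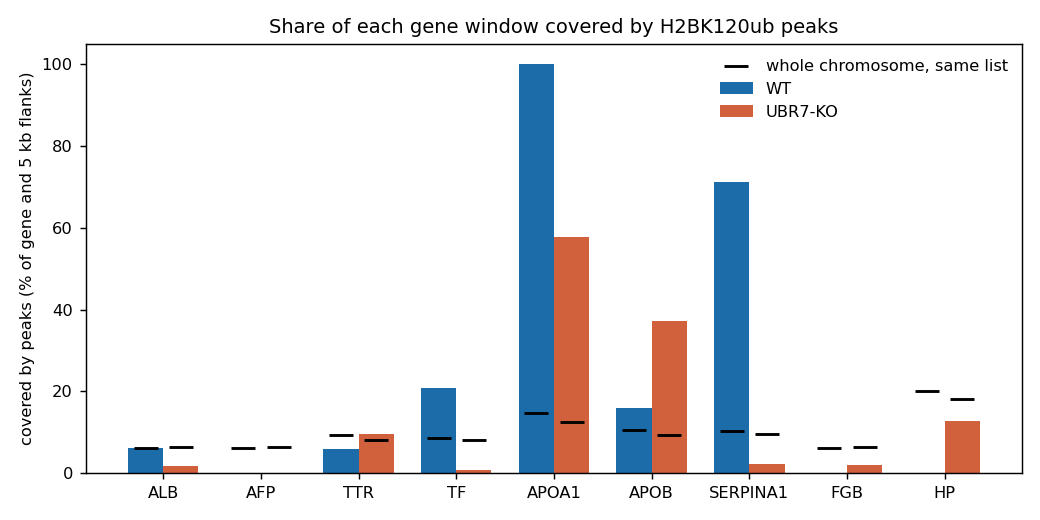
Share of each gene window (gene span and 5 kb on each side, in percent) covered by peaks in WT and UBR7-KO, with a black dash for the share of the whole chromosome covered in the same list. APOA1 and SERPINA1 reach 100% and 71.3% in WT, APOB is the only tall bar that is higher in UBR7-KO, and AFP is at 0% in both.

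Summed over the 9 windows (240322 bp), peaks covered 48978 bp or 20.4% in WT and 31854 bp or 13.3% in UBR7-KO, a ratio of 0.650. The average of their chromosomes, weighted by window length, was 9.5% and 8.82%. Both sums rest on few genes. APOA1 and APOB held 41.4% of the covered length in WT and 82.9% in UBR7-KO. Over the other 7 genes peaks covered 28706 bp in WT but 5440 bp in UBR7-KO, a ratio of 0.190. Most of this WT length lay at SERPINA1 (17082 bp) and TF (8926 bp). Among these 7, TTR, FGB and HP had more cover in UBR7-KO, and ALB, TF and SERPINA1 had more in WT. Leaving out SERPINA1 alone moved the ratio for all 9 genes to 0.982, and leaving out APOB alone moved it to 0.303. Of the 9 genes, 4 had more covered length in WT (ALB, TF, APOA1 and SERPINA1), 4 had more in UBR7-KO (TTR, APOB, FGB and HP) and AFP had none. The genes thus did not share a direction.

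By position, 9 of 16 WT peaks (56.2%, exact 95% binomial interval 29.9 to 80.2) overlapped a UBR7-KO peak by at least 1 bp, against 40.2% of all WT peaks. Of the UBR7-KO peaks, 6 of 13 (46.2%, interval 19.2 to 74.9) overlapped a WT peak, against 35.2% of all. Both intervals, which cover counting error only, include the share of the whole list. They treat peaks of the same gene as independent and may therefore be too narrow. The overlaps came from 4 genes, ALB, APOA1, APOB and SERPINA1, whereas TTR and TF had peaks in both libraries but none in common. In all, 14472 bp were covered in both, making up 29.5% of the WT cover and 45.4% of the UBR7-KO cover.

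The peaks of the 9 genes were of ordinary height for their lists. The median fold enrichment was 2.22 in WT, where the list median was 2.2, and 2.17 in UBR7-KO, where it was 2.15. The median WT peak was 1551 bp long and the median UBR7-KO peak 1339 bp, beside 1584.5 bp and 1361.5 bp for the lists. Values of 2.5 or more were seen at 2 of 16 WT peaks, those upstream of ALB and at the start of APOB, and at 2 of 13 UBR7-KO peaks, those upstream of ALB and at the end of TTR. Of all peaks, 16.9% in WT and 9.77% in UBR7-KO had such values, so the members' counts were near those of the lists. ALB was therefore the only gene with such a peak in both libraries. The pileup depends on depth and was read within a library only. The local background recovered from pileup and fold enrichment was 1.96 to 3.45 at the WT peaks against 1.17 to 1.69 at the UBR7-KO peaks, and its part in the differences above was not tested.

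**Figure D3:**
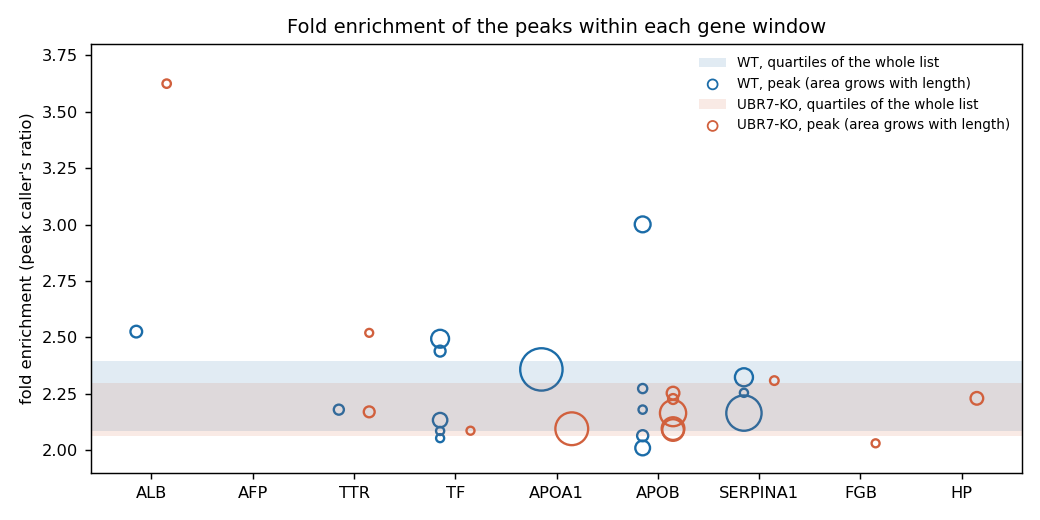
Fold enrichment over the local background, as the peak caller gives it, of each peak in the 9 windows, WT in blue and UBR7-KO in orange, with a circle area that grows with peak length and bands for the quartiles of each whole list. Most circles lie in or near the bands, and the highest are the UBR7-KO peak of ALB at 3.62 and the WT peak of APOB at 3.0, while the long peaks of APOA1 and SERPINA1 sit within the bands.

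Along the genes, cover was read in the direction of transcription. The 5 kb upstream held cover at 6 of 9 genes in WT and at 2 of 9 in UBR7-KO (ALB and APOB), while 26% and 28.3% of genome windows of 5 kb, near genes or not, held a peak. Of these bases, 31.1% were covered in WT and 11.9% in UBR7-KO. With each gene span cut into 3 equal parts, the shares over the part next to the start were 18.9% in WT and 20.1% in UBR7-KO, at 4 genes each, and over the middle part they were 12.97% and 14.2%. Over the last part the shares were 17.2% and 7.66%, and over the 5 kb downstream 23.03% and 12.2%. APOA1 alone supplied 5 kb to the WT sum upstream, and SERPINA1 and APOA1 most of the WT sum downstream. In UBR7-KO, APOB supplied most of the upstream cover, with 97.5% of its own 5 kb, against 45% in WT.

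The surroundings of the genes, 100 kb on each side in steps of 10 kb, showed that little cover at a gene was part of a wider stretch in some cases and not in others. Around ALB and AFP the average cover was 3.08% and 2.81% in WT and 1.70% and 1.55% in UBR7-KO, below the 6.08% and 6.35% of the whole of chromosome 4. Since these neighbours share most of their surroundings, they count as 1 region. HP had no WT peak within 5 kb, yet its surroundings were covered over 18.8% in WT, with up to 71.5% of a step, and over 10.1% in UBR7-KO. Around TF the cover was 28.3% in WT and 11.3% in UBR7-KO, against 8.52% and 7.97% for chromosome 3. The largest differences lay 50 to 100 kb downstream, with 100% in WT and 0% in UBR7-KO at 80 to 90 kb. Upstream of TF the steps went both ways. At 30 to 40 kb they held 45.0% in WT and 12.9% in UBR7-KO, and at 40 to 50 kb 24.8% and 69.7%. The lower average was thus not a lower cover all around the gene. Around SERPINA1 the difference was smaller, 18.1% and 13.2%, than over the gene itself. APOB had the reverse order, 11.3% in WT and 22.2% in UBR7-KO, as at the gene. Around APOA1 the shares were 24.6% and 22.4%.

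**Figure D4:**
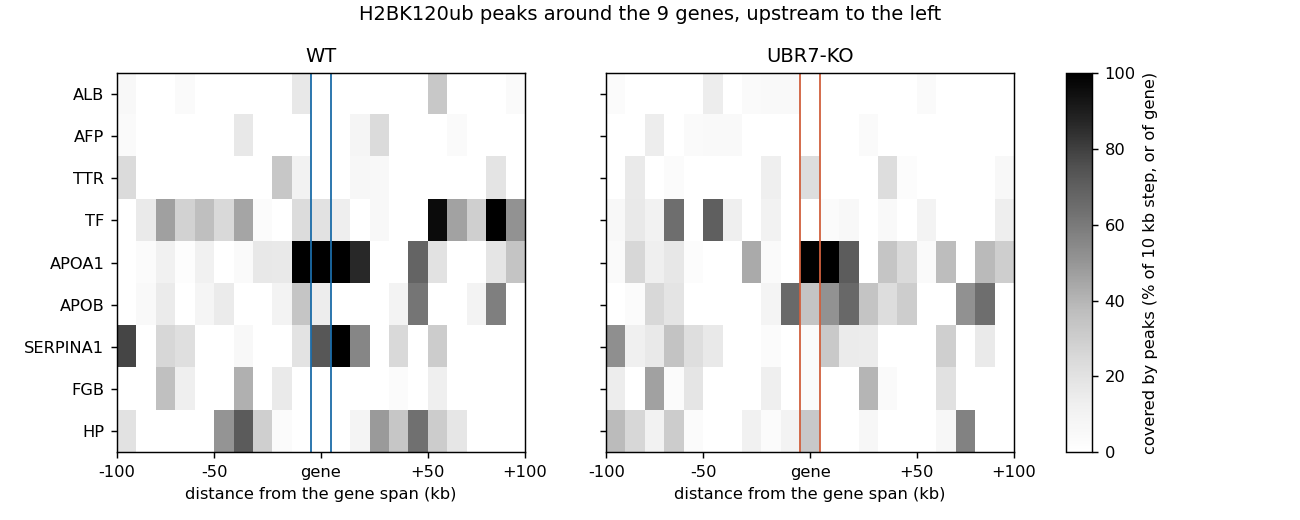
Share of each 10 kb step (in percent, white 0 to black 100) covered by peaks from 100 kb upstream to 100 kb downstream of each gene, with the gene span itself between the coloured lines, for WT on the left and UBR7-KO on the right. The rows of ALB and AFP are nearly white in both, those of APOA1 are black at the gene in both, and that of SERPINA1 is dark at the gene in WT only.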

How the data were processed

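H2BK120ub was profiled by ChIP-seq in 1 WT and 1 UBR7-KO library, grouped by the genotype in the labels. Per the study's methods, the authors aligned reads with BWA aln to hg19 and called peaks with MACS separately for each library with a q-value threshold (the number is not given), whereas the submitters' processing notes name FastQC and Bowtie 1.1.2. The pileup is a signal deposited by the authors from their peak caller, and it is not scaled to depth as far as stated. The fold enrichment is a ratio deposited by the authors, set against the local background of the same library, and no peak had a value under 2. The methods also mention a list of peaks seen repeatedly, and whether that applies to the deposited lists is not stated. Read numbers, the control library and the peak mode are not given in the sources used here.

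The UBR7-KO list held 6 empty rows, which were dropped. Peaks were assigned to gene spans given in hg19, with 5 kb on each side. Strands and gene functions are textbook knowledge. The members and lists were chosen with earlier results of these data known. Covered length was counted within each window. Background came from windows of equal length laid end to end along the chromosomes, with assembly gaps included and chromosome lengths from GenomeInfoDb 1.38.1. The background at a peak was recovered as the pileup plus 1, divided by the fold enrichment, minus 1. It was assumed that the peak caller added its usual pseudocount of 1 and took both values at the same place. All 9 members are named. No gene annotation of hg19 was used, so other secreted protein genes were not analysed here. Python 3.11.15 with numpy 2.4.6, pandas 2.3.3, scipy 1.17.1 and matplotlib 3.10.9 was used. Interval counts were tested on simulated data against bedtools 2.31.1. Positions are counted from 1. Alternatives covered thresholds, list size, merging, flanks and the overlap that counts as shared.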

Additional observations from a re-analysis of the deposited data

How the results depend on the processing

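With 1 library per genotype no replicate could be left out. No paired analysis was possible because the genotypes had only 1 library apiece. The number of reads behind each peak is unknown, so a gene without a peak may hold signal below the threshold of the peak caller. Of 101 values under alternatives, 71 stayed within 1.5 times the main value or, for overlaps, within its binomial interval, 28 moved further and 2 reversed.

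A fold enrichment of at least 2.5 left 2 genes with a peak and 2 peaks in each library, covering 5460 bp for WT and 779 bp for UBR7-KO (ratio 0.143), with 2 and 0 genes having a peak at the start site (ratio 0). Keeping peaks whose pileup was 3 or more times the background left 3 genes in WT and 5 in UBR7-KO, with 3 and 8 peaks (ratio 2.67, reversed from 0.812, while for all peaks the ratio was 2.22 under this limit and 1.25 without it), 10504 and 7959 bp, 3 and 2 genes at the start site, and an overlap of 12.5% in UBR7-KO. Merging peaks within 5000 bp left 10 WT peaks (ratio 1.1, reversed). Gene spans alone held 24612 bp of WT cover and 21044 bp of UBR7-KO cover. Requiring 50% of both peaks gave overlaps of 6.25% and 7.69%. Overlap of the whole lists was counted at 1 bp and without limits only. These shares and the 12.5% thus have no list share beside them. A peak on the start base itself was found at 1 gene in UBR7-KO (ratio 0.25). The covered ratio of 0.650 without SERPINA1 (0.982) or APOB (0.303) was chosen after seeing the data. In these cases the cause was not tested. The ratio of covered lengths stayed under 1 throughout, whereas the ratio of genes with a peak, 1.33 in the main count, was 1 with the limit of 2.5.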
